A study of Rattus norvegicus with 18 samples.

Results

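The INK4 and KIP inhibitors of the cell cycle were followed through 4NQO carcinogenesis of the rat tongue together with cyclin D1 and RB1, 7 genes of the 14217 that the array names: Cdkn2a, Cdkn2b and Cdkn2c (INK4), Cdkn1b and Cdkn1c (KIP), Ccnd1 and Rb1. They are read by 11 probe sets, and 3 of the genes have more than 1. Each gene stands for its probe set of highest mean log2 signal, and the others are given beside it. The genes were picked by symbol with their stage changes in oral epithelia already known. Their epithelial changes are therefore a description of what chose them, with no test, and so are the comparisons of epithelia with fibroblasts in the lesions. Tests are given for the submucosal fibroblasts and for the comparison of the 2 normal layers. The latter comparison uses the normal epithelial samples from which the epithelial changes were measured. Its p-values for the members are therefore not independent of their choice.

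Progress through G1 turns on cyclin D with CDK4 or CDK6, which phosphorylates RB1 and frees E2F factors to switch on the genes of DNA synthesis. INK4 proteins bind CDK4 and CDK6 and keep cyclin D away, whereas KIP proteins bind whole cyclin and CDK complexes and hold back cyclin E with CDK2. Cdkn2a also encodes ARF from another first exon, an inhibitor of MDM2 that leads to p53. Loss of CDKN2A and gain of CCND1 are common lesions of human oral SCC, and high CDKN2A mRNA is a known mark of senescent cells and of cells without working RB.

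The samples came from tongues of male Sprague Dawley rats. Controls drank distilled water only, and the other animals drank water with 0.002% 4-nitroquinoline 1-oxide (4NQO), a mutagen that forms bulky DNA adducts, until lesions were taken between week 14 and week 22. The 6 groups are normal, dysplasia and SCC, each as oral epithelia and as submucosal fibroblasts, with 3 samples in each and 1 Affymetrix rat expression array per sample. All dysplasia and SCC samples come from 4NQO-treated rats, so that lesion stage and carcinogen exposure cannot be told apart between normal and lesion, and the ages of the groups were not given in the labels. Per the study's text each sample pools the tissue of 3 rats, so that p-values measure the spread between pools. Epithelia were sheets lifted off after dispase, and the fibroblasts were cells of the remaining connective tissue that had stuck to a dish within minutes after collagenase.

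The labelled layers held their markers, but not alone. The mean log2 signal of 10 epithelial markers was 13.4 to 13.6 in the epithelial samples and 11.2 to 13.1 in the fibroblast samples. Krt5, a basal keratin, reached 12.4 to 13.6 in normal fibroblasts against 13.2 to 13.4 in normal epithelia. In dysplasia Krt5 was at 13.371 to 13.689 in fibroblasts against 13.424 to 13.583 in epithelia. In SCC it was at 13.575 to 13.68 in fibroblasts, above the 13.298 to 13.566 of epithelia. Krt14 and Cdh1, other genes of epithelia, were lower in fibroblasts than in epithelia at every stage. In SCC Cdh1 was at 11.087 to 11.958 in fibroblasts against 12.631 to 12.884 in epithelia. RNA of epithelial markers was thus present in the fibroblast samples. Pdgfra, a fibroblast receptor, was at 5.47 to 6.13 in normal epithelia and 12.7 to 13.1 in normal fibroblasts. The third fibroblast samples stood apart. Macrophage markers averaged 8.77 in the third normal fibroblast sample against 11.1 and 11.5 in the others, and 10.7 in the third dysplasia sample against 8.46 and 8.41. In SCC the third sample was at 11.6 against 9.57 and 9.67. The third sample was thus lowest in normal and highest in both lesion groups. The third dysplasia fibroblast array correlated slightly better with the normal arrays (mean r 0.975 over all probe sets) than with the other dysplasia arrays (0.973). Other values moved with stage in all fibroblast samples. Neutrophil markers averaged 5.39 to 5.65 in normal, 6.18 to 6.78 in dysplasia and 7.70 to 8.23 in SCC fibroblasts. The 3′ minus 5′ log2 signal of actin, a measure of RNA integrity, was 1.51 to 2.02 in normal, 1.59 to 2.0 in dysplasia and 1.14 to 1.26 in SCC fibroblasts. Their part in the fibroblast stage changes below was not tested. Because the third samples stood apart, the fibroblast values or calls are given with and without the third samples where these decide a call. Leaving them out was chosen after seeing the data and leaves fewer samples per group. It called 32.6% of all genes between dysplasia and normal fibroblasts and 47% between SCC and normal fibroblasts. With all samples these shares were 0.169% and 16.2%. In such bulk samples fewer cells of a type and less RNA per cell cannot be told apart, and the number of arrays limits the precision.

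The promoter stretches of the INK4 genes Cdkn2a and Cdkn2b, with 1 protein-coding gene between them in the RefSeq order, are shown because both genes had higher mean signals in lesions of both layers, and that of Cdkn2c because it went the other way. They are the 250 bases before the gene start that RefSeq gives in assembly GRCr8, 5′ to 3′ on the gene's own strand. Capitals mark GC boxes (GGGCGG) and the cyclic AMP response element TGACGTCA, each read on both strands.
Cdkn2a, chr5:109107957-109108206, minus strand: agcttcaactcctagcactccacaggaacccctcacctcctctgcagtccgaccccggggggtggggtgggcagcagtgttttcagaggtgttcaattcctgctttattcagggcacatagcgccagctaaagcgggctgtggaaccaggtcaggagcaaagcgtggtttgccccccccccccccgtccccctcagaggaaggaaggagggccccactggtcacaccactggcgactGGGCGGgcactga
Cdkn2b, chr5:109134856-109135105, minus strand: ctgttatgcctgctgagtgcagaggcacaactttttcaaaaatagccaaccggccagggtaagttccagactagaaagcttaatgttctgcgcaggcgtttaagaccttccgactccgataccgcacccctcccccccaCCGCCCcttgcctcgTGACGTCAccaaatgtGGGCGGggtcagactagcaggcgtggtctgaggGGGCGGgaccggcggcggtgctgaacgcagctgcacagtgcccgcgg
Cdkn2c, chr5:129644892-129645141, minus strand: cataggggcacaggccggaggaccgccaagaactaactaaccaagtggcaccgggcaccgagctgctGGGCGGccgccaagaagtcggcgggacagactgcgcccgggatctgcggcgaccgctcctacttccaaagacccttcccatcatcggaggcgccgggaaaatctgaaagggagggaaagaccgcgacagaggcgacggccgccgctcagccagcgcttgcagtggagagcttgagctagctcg
The search also covered the E2F forms TTTCCCGC, TTTGGCGC, TTTGCCGC and TTTCGCGC, the AP-1 site TGANTCA and the E-box CACGTG, of which none lay in these windows. Cdkn2b held 3 GC boxes and the response element, and Cdkn2a and Cdkn2c held 1 GC box each. Over 33469 RefSeq promoter windows of the same length, 30.5% held a GC box, 1.59% the response element, 1.73% one of the E2F forms, 6.34% the AP-1 site and 5.59% the E-box. GC content was 62.8% for Cdkn2a, 60.8% for Cdkn2b and 65.2% for Cdkn2c. For Cdkn2a the window stands before 1 of the gene's starts and says nothing of the other. Of the 7 genes 5 had a window in the table, and Ccnd1 and Cdkn1c had none.

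Cdkn2a had higher signals in the lesions of both layers than in normal tissue. The normal epithelia had log2 signals of 4.55, 4.85 and 4.98, the dysplasia epithelia 10.44, 10.77 and 10.57, and the SCC epithelia 11.19, 10.43 and 10.69. Every lesion sample lay above every normal sample by more than 5 log2 units, while dysplasia and SCC overlapped. The difference in mean log2 signal from normal was 5.80 (SE 0.20) in dysplasia and 5.98 (SE 0.20) in SCC, and SCC minus dysplasia was 0.18 (SE 0.20). These epithelial values are among those that chose the gene. Whether the probe set reads the INK4a transcript, the ARF transcript or both cannot be told from the values.

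In the submucosal fibroblasts Cdkn2a read 4.97, 4.84 and 4.41 in normal tissue, 8.97, 7.79 and 7.17 in dysplasia, and 10.35, 9.16 and 8.20 in SCC. No lesion sample overlapped the normal ones, and dysplasia and SCC overlapped. Cdkn2a rose from normal to SCC by 4.49 on the log2 scale (SE 0.57, n = 3 and 3, limma adjusted p = 0.00299 over 31042 probe sets). The normal to dysplasia difference was 3.24 (SE 0.57) and missed the threshold at an adjusted p of 0.0724. It passed without the third samples (3.48, adjusted p = 0.00586). SCC minus dysplasia was 1.26 (SE 0.57, adjusted p = 0.295). The rise to SCC was called in 19 of 20 other settings, the exception being the methods' t-test (adjusted p = 0.0559), with values of 3.44 to 5.29. The normal signals lay below the array medians of 6.53 to 6.86, no detection calls were used, and no fold is therefore given.

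The normal layers had like levels of Cdkn2a, with epithelia minus fibroblasts at 0.05 (SE 0.46, 95% interval -0.94 to 1.05). In the lesions all epithelial samples were above all fibroblast samples, by 2.62 (SE 0.46) in dysplasia and 1.54 (SE 0.46) in SCC. The order of the group means was thus normal fibroblasts, normal epithelia, dysplasia fibroblasts, SCC fibroblasts, dysplasia epithelia and SCC epithelia. Of the neighbours in that order only normal epithelia and dysplasia fibroblasts, and SCC fibroblasts and dysplasia epithelia, had samples that did not overlap.

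Since the fibroblast samples held RNA of epithelial markers, the epithelial markers are set beside Cdkn2a. They averaged 12.86, 12.81 and 11.22 in the normal fibroblasts, 13.00, 13.00 and 12.47 in dysplasia, and 13.07, 12.95 and 12.21 in SCC. The normal fibroblast samples 1 and 2, with markers at 12.86 and 12.81, read 4.97 and 4.84 for Cdkn2a, within the range of normal epithelia. Within dysplasia and within SCC the third sample was lowest in both the markers and Cdkn2a. The part of epithelial RNA in the fibroblast signal of Cdkn2a was not tested.

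**Figure D1:**
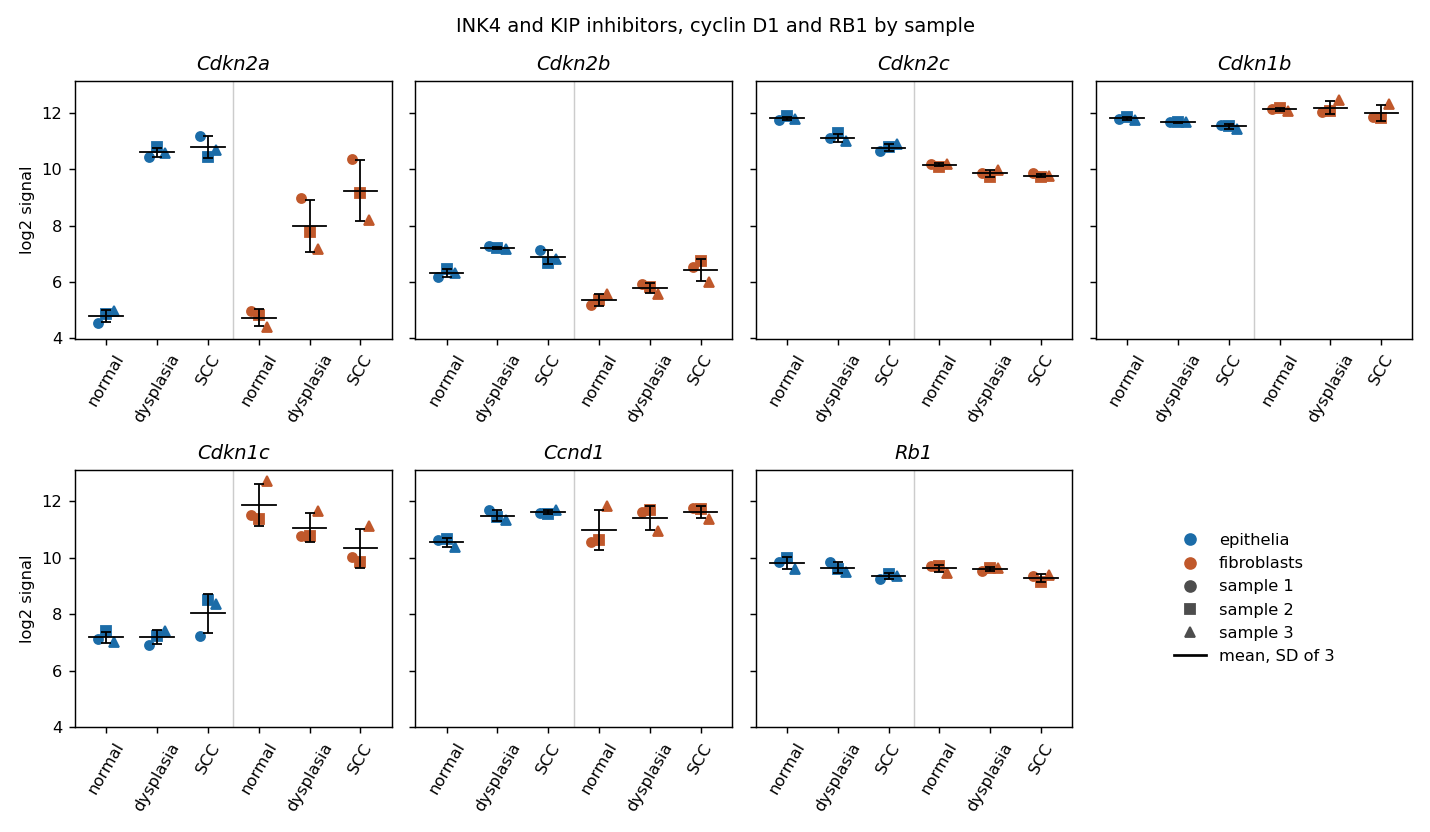
Log2 signal of each gene's representative probe set in the 18 samples, with epithelia in blue and fibroblasts in orange, and black bars for the mean and SD of 3 samples. Cdkn2a moved from below 5 in all 6 normal samples to above 7 in all lesion samples, Cdkn1c separated the layers at every stage, and Cdkn1b and Rb1 stayed within about 1 log2 unit throughout.

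Cdkn2b, which encodes the TGF-beta responsive inhibitor p15INK4b, had a small change in the same direction. Its log2 signals were 6.19, 6.47 and 6.33 in normal epithelia, 7.26, 7.20 and 7.18 in dysplasia, and 7.15, 6.69 and 6.82 in SCC. Both lesion groups lay wholly above normal, and all SCC samples lay below all dysplasia samples. Relative to normal the difference was 0.89 (SE 0.14) in dysplasia and 0.55 (SE 0.14) in SCC. Thus the changes of these genes of 1 locus differed in size, with 5.80 for Cdkn2a and 0.89 for Cdkn2b in the same dysplasia samples.

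In fibroblasts Cdkn2b was at 5.17, 5.35 and 5.58 in normal, 5.91, 5.83 and 5.58 in dysplasia, and 6.53, 6.76 and 6.0 in SCC. All SCC samples lay above all dysplasia samples, and dysplasia touched normal. Cdkn2b rose by 1.06 from normal to SCC (SE 0.21, adjusted p = 0.0154), a call that was lost without normal sample 1 (adjusted p = 0.0534), normal sample 2 (adjusted p = 0.0523), SCC sample 1 (adjusted p = 0.0697) or SCC sample 2 (adjusted p = 0.0641) and with the methods' t-test (adjusted p = 0.103). The dysplasia difference was 0.40 (SE 0.21, adjusted p = 0.335), or 0.61 (adjusted p = 0.0187) without the third samples. Normal epithelia exceeded normal fibroblasts by 0.96 (SE 0.18, adjusted p = 0.000284). With signals of 5.17 to 7.26 this is a dim probe set beside the array medians of 6.53 to 6.86.

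Cdkn2c, encoding p18INK4c, was the INK4 gene that went down. Normal epithelia read 11.76, 11.87 and 11.76, dysplasia epithelia 11.09, 11.27 and 10.99, and SCC epithelia 10.64, 10.77 and 10.88. The 3 epithelial stages did not overlap, and each was lower than the one before. The difference from normal was -0.68 (SE 0.12) in dysplasia and -1.03 (SE 0.12) in SCC. Fibroblasts read 10.18, 10.09 and 10.18 in normal, 9.86, 9.73 and 9.98 in dysplasia, and 9.84, 9.73 and 9.74 in SCC. Both lesion groups were below normal without overlap, but by less, at -0.30 (SE 0.12, adjusted p = 0.244) and -0.38 (SE 0.12, adjusted p = 0.0610). The fall to SCC was called in 7 of 20 other settings. Among them was the fit without the third samples, where 47% of all genes were called. The SCC difference turned to 0.23 when arrays were aligned on the spike-in controls, an alignment that moves the median of all probe sets in this comparison to 0.56.

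The second Cdkn2c probe set read between 6.44 and 7.52. It did not follow the fall, with -0.26 (SE 0.16) in dysplasia and -0.08 (SE 0.16) in SCC epithelia, and 0.31 (SE 0.18, adjusted p = 0.376) and 0.41 (SE 0.18, adjusted p = 0.146) in fibroblasts. Both probe sets placed normal epithelia above normal fibroblasts, by 1.64 (SE 0.11, adjusted p = 1.02e-08) and 0.71 (SE 0.17, adjusted p = 0.00212).

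**Figure D2:**
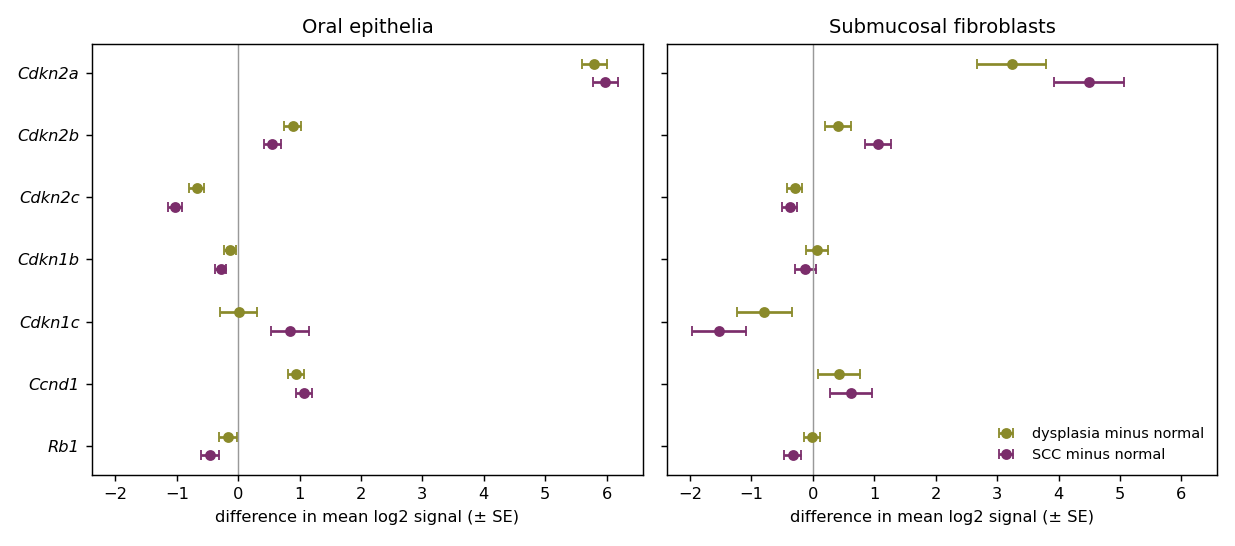
Difference in mean log2 signal of dysplasia and SCC from normal, with its SE, in oral epithelia (left) and submucosal fibroblasts (right), 3 samples per group. Cdkn2a was farthest from 0 in both layers, Cdkn2c lay below 0 in all 4 comparisons, and Cdkn1c lay at or above 0 in epithelia and below 0 in fibroblasts.

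Cdkn1b, which encodes p27KIP1, differed little between stages in its brighter probe set. This probe set read 11.78, 11.86 and 11.76 in normal epithelia, 11.65, 11.68 and 11.65 in dysplasia, and 11.58, 11.53 and 11.43 in SCC. The stages did not overlap in epithelia although the differences from normal were only -0.14 (SE 0.09) and -0.29 (SE 0.09). Fibroblasts read 12.15, 12.15 and 12.06 in normal, 12.02, 12.07 and 12.45 in dysplasia, and 11.86, 11.81 and 12.32 in SCC. The third sample was the high one in both lesion groups. Dysplasia minus normal was 0.06 (SE 0.18, adjusted p = 0.867) and SCC minus normal -0.12 (SE 0.18, adjusted p = 0.665, 95% interval -0.55 to 0.31). Without the third samples the SCC difference was -0.32 (adjusted p = 0.0409).

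The second Cdkn1b probe set gave another picture of the layers. It read 8.35, 8.70 and 8.62 in normal epithelia and 6.57, 6.94 and 7.61 in normal fibroblasts, so that epithelia were higher by 1.52 (SE 0.23, adjusted p = 3.31e-05). The brighter probe set had epithelia lower by 0.32, with SE 0.14 and an adjusted p of 0.0551. The direction of the layer difference of Cdkn1b thus depends on the probe set, and the spike-in alignment turned that of the brighter one to 0.54.

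**Figure D3:**
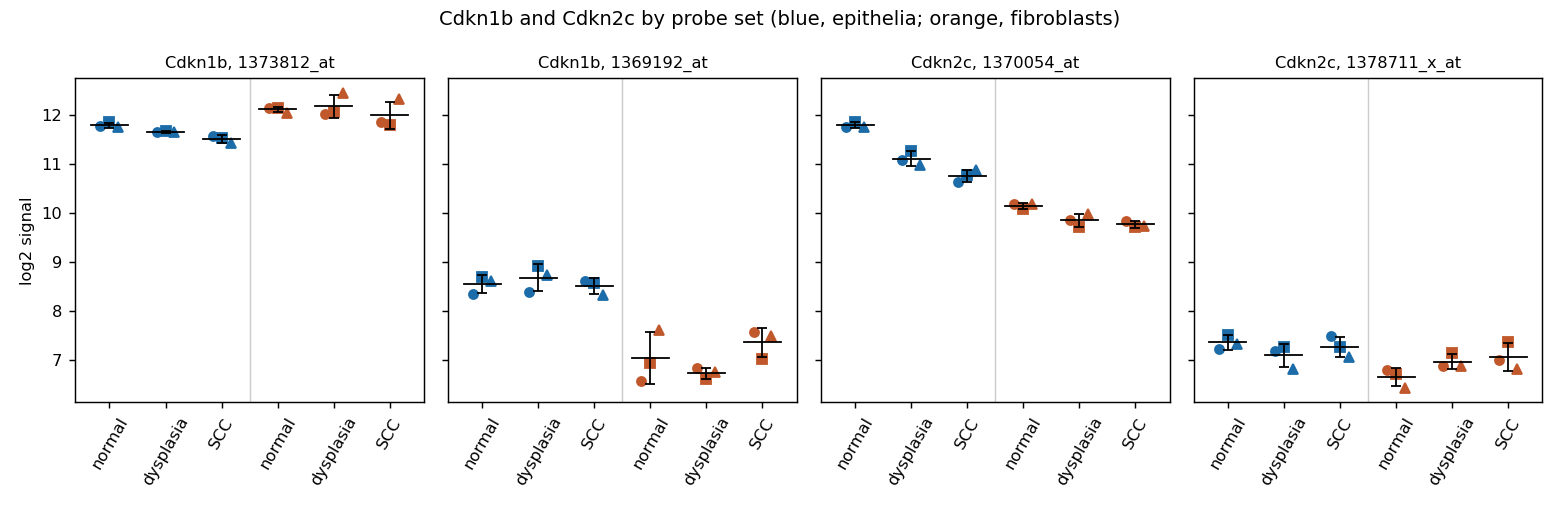
Log2 signal by sample of both probe sets of Cdkn1b and of Cdkn2c, the brighter of each pair first, epithelia in blue and fibroblasts in orange, with bars for the mean and SD of 3. The layers are in opposite order for the probe sets of Cdkn1b, and the stepwise fall of Cdkn2c in epithelia appears in the brighter probe set.

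Cdkn1c, which encodes p57KIP2 and is an imprinted gene active in mesenchymal tissue, differed widely between the layers. It read 7.13, 7.40 and 7.01 in normal epithelia and 11.53, 11.36 and 12.71 in normal fibroblasts. Normal epithelia were lower by 4.68 on the log2 scale (SE 0.41, adjusted p = 1.47e-07), which makes normal fibroblasts 25.7-fold higher, and the difference was called in all 28 other settings. In dysplasia the layers differed by -3.88 (SE 0.41) and in SCC by -2.31 (SE 0.41), without overlap at any stage.

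The fibroblast level of Cdkn1c was lower at each later stage, with 10.78, 10.78 and 11.65 in dysplasia and 10.04, 9.85 and 11.13 in SCC. The third sample was the highest at all 3 stages. SCC lay wholly below normal and overlapped dysplasia. Cdkn1c fell by 1.53 from normal to SCC (SE 0.44, 2.88-fold, adjusted p = 0.0492), close to the threshold. The call was lost when any 1 of normal samples 1, 2 and 3, dysplasia samples 1 and 2 or SCC samples 1 and 2 was left out (adjusted p 0.0678 to 0.170), with the spike-in alignment (0.145), with an offset of 32 (0.0533) and with the methods' t-test (0.192). Dysplasia minus normal was -0.79 (adjusted p = 0.367). SCC minus dysplasia was -0.74 (adjusted p = 0.434), and passed with the replicate number as a block (adjusted p = 0.0391), where these groups' samples pair by number. Fibroblast markers averaged 12.56 to 12.95 in normal, 11.84 to 12.62 in dysplasia and 11.73 to 12.39 in SCC fibroblasts, and were highest in the third sample at each stage as well. The part of fibroblast content in the change of Cdkn1c was not tested.

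In epithelia Cdkn1c read 6.92, 7.24 and 7.41 in dysplasia and 7.24, 8.49 and 8.35 in SCC. Samples 2 and 3 of SCC lay above all other epithelial samples, and sample 1 lay within the normal range. SCC minus normal was 0.85 (SE 0.30) and dysplasia minus normal 0.01 (SE 0.30). The fibroblast markers were at 9.57, 11.62 and 7.50 in the same SCC samples against 5.98, 8.15 and 5.90 in normal epithelia. SCC sample 3, with Cdkn1c at 8.35, lay in its markers above normal samples 1 and 3 and below normal sample 2. The part of fibroblast content in this change was not tested.

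**Figure D4:**
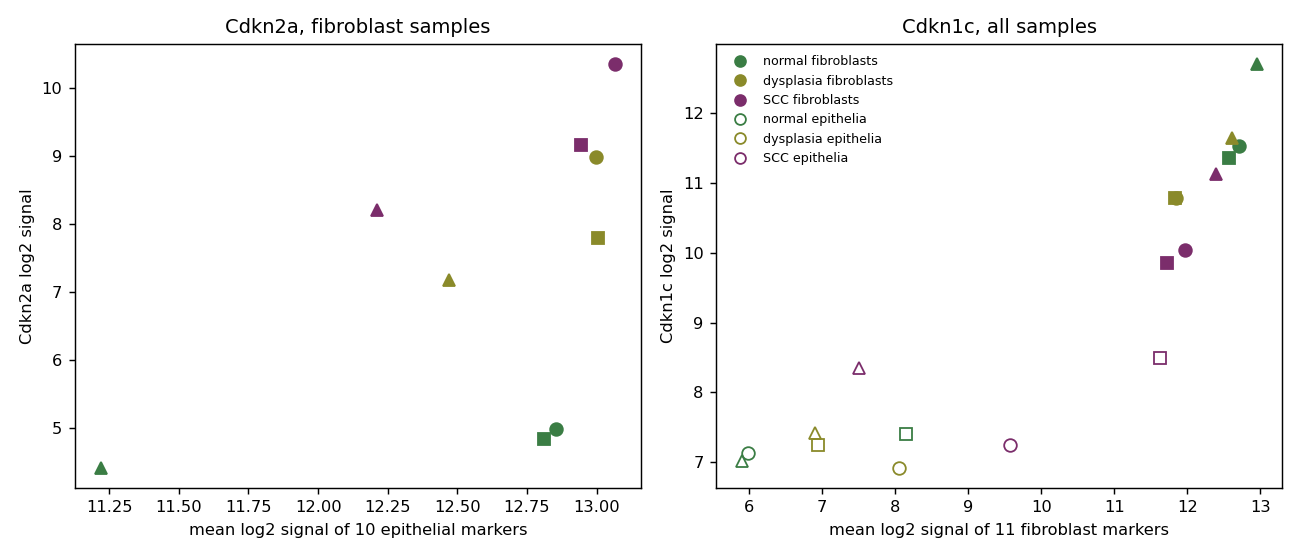
Left, log2 signal of Cdkn2a against the mean log2 signal of 10 epithelial markers in the 9 fibroblast samples. Right, Cdkn1c against the mean of 11 fibroblast markers in all 18 samples, with open symbols for epithelia and circle, square and triangle for samples 1, 2 and 3. Normal fibroblast samples 1 and 2 had epithelial markers above 12.8 with Cdkn2a below 5, where normal epithelia (not shown on the left) also read below 5. In dysplasia and in SCC the third fibroblast sample was lowest in both epithelial markers and Cdkn2a. The third fibroblast sample of each stage was the highest of its stage in both fibroblast markers and Cdkn1c.

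Ccnd1, the G1 cyclin that INK4 proteins compete with, was brighter in all epithelial lesions. It read 10.62, 10.67 and 10.38 in normal epithelia, 11.70, 11.46 and 11.34 in dysplasia, and 11.59, 11.56 and 11.71 in SCC. Normal did not overlap the lesions, and dysplasia and SCC overlapped. The difference from normal was 0.94 (SE 0.13) in dysplasia and 1.07 (SE 0.13) in SCC, and the other probe sets gave 0.97 and 0.96 for dysplasia and 1.01 and 1.01 for SCC. All 3 probe sets of Ccnd1 thus showed about a 2-fold higher signal.

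In fibroblasts the third samples decided Ccnd1. It read 10.55, 10.61 and 11.82 in normal, 11.62, 11.71 and 10.94 in dysplasia, and 11.76, 11.72 and 11.38 in SCC. Samples 1 and 2 repeated the epithelial pattern, and in this brightest probe set the third normal sample was above every dysplasia and SCC sample. Dysplasia minus normal was 0.43 (SE 0.34, adjusted p = 0.521) and SCC minus normal 0.62 (SE 0.34, adjusted p = 0.234). Without the third samples they were 1.08 (adjusted p = 0.00197) and 1.16 (adjusted p = 0.000622), where 32.6% and 47% of all genes were called. Normal epithelia minus normal fibroblasts was -0.44 (SE 0.28, adjusted p = 0.173), and 0.41 after the spike-in alignment. Of the other probe sets of Ccnd1, the brighter also had the third normal fibroblast sample, at 11.61, above all lesion fibroblasts. In the dimmest probe set that sample read 11.13. There it lay below dysplasia samples 1 and 2 (11.33 and 11.34) and below all SCC samples (11.18 to 11.45).

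Rb1, the pocket protein that CDK4 and CDK6 phosphorylate, was a little lower in SCC. It read 9.84, 10.01 and 9.59 in normal epithelia, 9.86, 9.59 and 9.48 in dysplasia, and 9.25, 9.44 and 9.37 in SCC. SCC lay below the others without overlap, at -0.46 (SE 0.15) from normal. Fibroblasts read 9.70, 9.71 and 9.46 in normal, 9.52, 9.65 and 9.66 in dysplasia, and 9.35, 9.13 and 9.40 in SCC. SCC again lay lowest without overlap, at -0.33 from normal (SE 0.13, adjusted p = 0.117), or -0.46 (adjusted p = 0.0237) without the third samples and 0.28 after the spike-in alignment. Normal epithelia minus normal fibroblasts was 0.19 (SE 0.14, adjusted p = 0.231).

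The order of the group means differed from gene to gene, and not all neighbours in it were apart. Cdkn2b ran from normal and dysplasia fibroblasts through normal epithelia, SCC fibroblasts and SCC epithelia to dysplasia epithelia, where samples did not overlap between dysplasia fibroblasts and normal epithelia and between SCC and dysplasia epithelia. Cdkn2c ran from SCC, dysplasia and normal fibroblasts to SCC, dysplasia and normal epithelia, with overlap between SCC and dysplasia fibroblasts alone. Cdkn1b ran from SCC, dysplasia and normal epithelia to SCC, normal and dysplasia fibroblasts, and only the epithelial stages did not overlap. Cdkn1c ran from normal, dysplasia and SCC epithelia to SCC, dysplasia and normal fibroblasts, and only SCC epithelia and SCC fibroblasts were apart. For Ccnd1 every pair of neighbours overlapped from normal epithelia at the bottom to SCC of both layers at the top, and for Rb1 only SCC epithelia and dysplasia fibroblasts were apart.

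Counted over the 7 genes, none was called between dysplasia and normal fibroblasts by limma, with 2 at an unadjusted p under 0.05 and none by the methods' t-test after adjustment, where 0.162% of all genes were called higher and 0.00703% lower. Without the third samples 4 were called, where 32.6% of all genes were. Between SCC and normal fibroblasts Cdkn2a and Cdkn2b were called higher and Cdkn1c lower, against 10.4% of all genes called higher and 5.87% lower. All 7 were called without the third samples, where 47% of all genes were, 1 without normal sample 1 or 2 or SCC sample 1 or 2, where 3.09% to 6.43% of all genes were, and none with the methods' t-test. Between SCC and dysplasia fibroblasts limma called none, with 2 at an unadjusted p under 0.05 and none by the methods' t-test after adjustment, and the background was 1.6% higher and 0.331% lower. Between the normal layers Cdkn2b and Cdkn2c were called higher and Cdkn1c lower in epithelia, where 35.1% of all genes were called higher and 31.6% lower, so that 3 of 7 called is below the background. All comparisons with normal share the same normal samples.

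The other genes of the pathway were read from lists of G1, E2F and inhibitor regulators, 80 genes with a probe set, none of them a member. In dysplasia epithelia 29 were called higher and 1 lower than in normal epithelia, against 9.93% and 7.56% of all genes, and in SCC epithelia 36 were higher and 4 lower, against 17.7% and 17.2%. Between SCC and dysplasia epithelia none was called by limma (11 at an unadjusted p under 0.05) or by the methods' t-test after adjustment, where 0.0211% of all genes were called higher and 0.0141% lower, but 5 were called when SCC sample 3 was left out. In fibroblasts neither limma nor the methods' t-test after adjustment called any in dysplasia against normal, with 12 at an unadjusted p under 0.05 and 34 called without the third samples (32.6% of all genes). In SCC against normal 13 were higher and 2 lower, against 10.4% and 5.87% of all genes. After the spike-in alignment 32 were higher and 0 lower, against 29.7% and 0.366%, and 49 were called without the third samples, against 47%. In SCC against dysplasia neither test called any, with 25 at an unadjusted p under 0.05 and 28 called without the third samples (17% of all genes). The fibroblast count for SCC fell to 1 without normal sample 1 or 2 or SCC sample 1 or 2 (Rfc4 each time), and to 2 with the methods' t-test.

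E2F targets of S phase rose in epithelia. Of 16 measured, 15 rose in dysplasia and 15 in SCC, with medians of 1.07 and 1.13 on the log2 scale where the median of all genes was -0.02 and -0.03. Of all genes 9.93% and 17.7% were called higher there. In dysplasia the rise was 1.76 (SE 0.20) for Mcm6 and 1.46 (SE 0.18) for Mcm3, subunits of the replicative helicase, and 1.60 (SE 0.25) for Uhrf1, which guides maintenance of DNA methylation. In SCC Mcm6 rose by 1.86 (SE 0.20), Rfc4, a clamp loader subunit, by 1.73 (SE 0.18), and Mcm3 by 1.67 (SE 0.18). The adjusted p of these 6 changes lay between 0.000402 and 0.00596. The exception was Cdc45, at -0.07 (SE 0.12, adjusted p = 0.737) in dysplasia. In fibroblasts 3 of 16 rose in SCC (13 after the spike-in alignment), Rfc4 by 1.66 (SE 0.23, adjusted p = 0.00462), Uhrf1 by 1.37 (SE 0.38, adjusted p = 0.0425) and Mcm7 by 0.77 (SE 0.21, adjusted p = 0.0433), and the calls of Uhrf1 and Mcm7 were each lost without any 1 of 6 arrays. In that comparison 10.4% of all genes were called higher, and 29.7% after the spike-in alignment. Proliferation markers, 6 genes such as Mki67 and Top2a, averaged 8.64 to 9.37 in normal epithelia, 9.91 to 10.36 in dysplasia and 9.98 to 10.32 in SCC, and their part in the E2F targets was not tested.

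Of 12 G1 cyclins and kinases 5 rose in dysplasia epithelia and 7 in SCC epithelia, with none lower. Of all genes 9.93% and 17.7% were called higher there, and 7.56% and 17.2% lower. Ccne1, the cyclin that KIP proteins restrain, rose by 1.84 (SE 0.19, adjusted p = 0.00205) and 1.98 (SE 0.19, adjusted p = 0.000315). Ccna2, the S phase cyclin, rose by 1.31 (SE 0.23) and 1.27 (SE 0.23), and Cdc25a, a phosphatase that activates CDK2, by 1.02 (SE 0.11) and 1.08 (SE 0.11), with adjusted p of 0.00834 or lower for all 4. In SCC fibroblasts Ccne1 rose by 2.12 (SE 0.45, adjusted p = 0.0190) and Ccna2 by 1.48 (SE 0.43, adjusted p = 0.0495), and both calls were lost without normal sample 1 or 2 or SCC sample 1 or 2, and that of Ccna2 also without 3 other arrays.

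Against 9.93% and 17.7% of all genes called higher, 4 of 11 pocket proteins and E2F factors rose in dysplasia and 5 in SCC epithelia. They were led by the repressive E2F factors, E2f8 at 1.58 (SE 0.14, adjusted p = 0.00171) and 1.75 (SE 0.14, adjusted p = 0.000162) and E2f7 at 1.46 (SE 0.17, adjusted p = 0.00281) and 1.56 (SE 0.17, adjusted p = 0.000542), with Rbl1, the RB relative p107, at 0.94 (SE 0.15, adjusted p = 0.00612) and 0.88 (SE 0.15, adjusted p = 0.00312). In SCC fibroblasts E2f8 rose by 1.27 (SE 0.35, adjusted p = 0.0440), E2f7 by 0.89 (SE 0.22, adjusted p = 0.0325) and E2f4 by 0.73 (SE 0.18, adjusted p = 0.0319), while Tfdp2, an E2F partner, fell by 0.82 (SE 0.20, adjusted p = 0.0308), and all of these calls were lost without 5 or 6 of the arrays in turn.

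Of 10 genes that set the turnover and transcription of KIP genes, 1 rose and 1 fell in dysplasia epithelia and 1 rose and 2 fell in SCC epithelia, near the shares of all genes (9.93% and 7.56% in dysplasia, 17.7% and 17.2% in SCC). Cks1b, which presents p27 to its ubiquitin ligase, rose by 1.20 (SE 0.14, adjusted p = 0.00281) and 1.52 (SE 0.14, adjusted p = 0.000269). Foxo3, an activator of Cdkn1b, fell by 0.75 (SE 0.14, adjusted p = 0.00993) and 0.81 (SE 0.14, adjusted p = 0.00294), and Ubac1, of the ligase that acts on p27 in G1, fell by 0.69 in SCC (SE 0.13, adjusted p = 0.00429). In SCC fibroblasts Cops5, which binds p27 and takes it out of the nucleus, rose by 0.90 (SE 0.18, adjusted p = 0.0156), Cks1b by 0.84 (SE 0.22, adjusted p = 0.0346) and Rbx1, a cullin ligase subunit, by 0.47 (SE 0.12, adjusted p = 0.0365). The calls of the 3 were lost without 4, 6 and 7 of the 9 arrays in turn.

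Of 13 regulators of the INK4 locus, mostly Polycomb proteins, 2 rose in dysplasia epithelia and 1 rose and 1 fell in SCC epithelia. These counts were near or below the shares of all genes (9.93% and 7.56% in dysplasia, 17.7% and 17.2% in SCC). Ets1, a factor known to activate the INK4a promoter, rose by 1.73 (SE 0.37, adjusted p = 0.0183) and 3.48 (SE 0.37, adjusted p = 0.000436), the former lost without normal samples 1, 2 or 3 or dysplasia samples 1 or 3. Phc1 rose by 0.64 in dysplasia (SE 0.14, adjusted p = 0.0212), lost without normal samples 1 or 2 or dysplasia samples 1 or 3, and Cbx7, a Polycomb subunit that holds the locus silent, fell by 0.93 in SCC (SE 0.19, adjusted p = 0.00739). None of the 13 was called in fibroblasts, where 10.4% of all genes were called higher and 5.87% lower in SCC against normal. Beside the high Ets1 in SCC epithelia, the fibroblast markers given above were also higher there, and their part in it was not tested.

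Of the other CDK inhibitors Cdkn1a, encoding p21, fell by 0.65 in SCC epithelia (SE 0.11, adjusted p = 0.00380), and Cdkn2d, encoding p19INK4d, rose by 0.71 in SCC fibroblasts (SE 0.14, adjusted p = 0.0159), a call lost without normal sample 1 or 2 or SCC sample 1 or 2. Mdm2 and Mdm4, the measured genes of the ARF and p53 axis, were not called in epithelia, and Mdm4 fell by 0.93 in SCC fibroblasts (SE 0.21, adjusted p = 0.0241), lost without the same 4 arrays. Of 5 MYC and SMAD inputs to Cdkn2b, Myc rose by 0.42 in dysplasia (SE 0.10, adjusted p = 0.0268) and 0.44 in SCC epithelia (SE 0.10, adjusted p = 0.0114) and Smad3 by 0.44 in SCC epithelia (SE 0.14, adjusted p = 0.0397), where the first call was lost without any 1 of the 6 arrays compared and the last without 5 of 9.

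Of 9 senescence-associated genes 1 rose in dysplasia epithelia and 5 in SCC epithelia, where 9.93% and 17.7% of all genes were called higher. Cxcl1, a neutrophil chemokine, rose by 1.43 (SE 0.35, adjusted p = 0.0290) and 3.46 (SE 0.35, adjusted p = 0.000361), the former lost without any 1 of the 6 arrays compared. In SCC epithelia Mmp3, a stromelysin, rose by 4.68 (SE 0.57, adjusted p = 0.000771) and Il6 by 2.27 (SE 0.53, adjusted p = 0.0128). The 5 genes that rose in SCC epithelia, with Glb1 and Igfbp7 as the others, were all called lower in normal epithelia than in normal fibroblasts. Not called in SCC epithelia were Lmnb1 (0.22), Hmga1 (-0.07), Hmga2 (-0.12) and Igfbp3 (0.42). Fibroblast markers were at 7.50 to 11.6 in SCC epithelia against 5.90 to 8.15 in normal epithelia, macrophage markers at 7.09 to 9.27 against 5.90 to 6.13, and endothelial markers at 6.20 to 9.16 against 5.38 to 6.46. The part of these markers in the list was not tested. The chromatin gene Hmga1 was the only one of the list called in fibroblasts, higher by 0.82 in SCC (SE 0.20, adjusted p = 0.0291), lost without 5 of the 9 arrays in turn.

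Between the normal layers 15 of the 80 genes were higher and 41 lower in epithelia, against 35.1% and 31.6% of all genes. Their median was -0.51 where the median of all genes was 0.10. Of the E2F targets 9 of 16 were lower in normal epithelia, with Cdc45 the 1 that was higher. Cdkn2d was lower by 1.49 in normal epithelia with SE 0.20 and an adjusted p of 9.44e-06, and Cdkn1a was higher by 0.55 with SE 0.14 and an adjusted p of 0.00244. Aligning arrays on the spike-in controls moved the median of all probe sets in this comparison to 1.01, and 28 of the 56 calls kept direction and threshold. With it 34 of the 80 genes were called higher and 13 lower in normal epithelia, and of the E2F targets none was called lower and 3 higher, so that these directions depend on the scaling. Quantile normalization gave 19 higher and 33 lower, with 5 E2F targets lower.

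The genes beside the members in the genome were also read. Mtap, the metabolic gene next to Cdkn2a in the RefSeq order of GRCr8, rose by 1.43 in dysplasia epithelia (SE 0.15, adjusted p = 0.00217), 1.82 in SCC epithelia (SE 0.15, adjusted p = 0.000191) and 1.45 in SCC fibroblasts (SE 0.21, adjusted p = 0.00590). Dmrta1, on the side of Cdkn2b, was at 0.11 (SE 0.13, adjusted p = 0.590) in dysplasia epithelia and 0.28 (SE 0.13, adjusted p = 0.128) in SCC epithelia, and Klhl9, farther off, fell by 0.93 in SCC fibroblasts (SE 0.19, adjusted p = 0.0158), lost without normal sample 1 or SCC sample 1 or 2. Of 11 genes around Ccnd1, which are often gained with it in human oral SCC, none was higher and Fgf3 was lower in dysplasia epithelia, at -1.93 (SE 0.36, adjusted p = 0.0116). Of all genes 9.93% were called higher and 7.56% lower there. In SCC epithelia Tpcn2 was higher by 0.94 (SE 0.19, adjusted p = 0.00662), and Fgf3 was lower by 2.60 with SE 0.36 and an adjusted p of 0.00145, with Shank2 also called lower. In SCC fibroblasts Fadd rose by 1.47 (SE 0.19, adjusted p = 0.00358), and Mrgprf fell by 1.24 (SE 0.26, adjusted p = 0.0178), a call lost without normal sample 1 or 2 or SCC sample 1 or 2. Between SCC and normal fibroblasts 10.4% of all genes were called higher and 5.87% lower. Of 11 genes around the imprinted Cdkn1c, Cars1 was the 1 called in SCC fibroblasts, higher by 0.66 (SE 0.14, adjusted p = 0.0178), a call lost without normal sample 2 or SCC sample 1 or 2. Among those that missed the threshold there, Igf2 was at -1.39 (adjusted p = 0.0703), H19 at -0.94 (adjusted p = 0.0681), Cd81 at -0.62 (adjusted p = 0.0508), Slc22a18 at -0.57 (adjusted p = 0.114) and Phlda2 at 1.93 (adjusted p = 0.0675). Kcnq1, Nap1l4, Ascl2, Tspan32 and Tssc4 lay between 0.02 and 0.19, and the list median was 0.09. In dysplasia epithelia Cd81 was called higher by 0.88 and Cars1 lower by 0.55. In SCC epithelia Cd81 (1.04) and Tssc4 (0.35) were called higher, and Ascl2 (-1.06) and Cars1 (-0.59) lower. Of all genes 9.93% were called higher and 7.56% lower in dysplasia epithelia, and 17.7% and 17.2% in SCC epithelia. The numbers called around Cdkn1c in epithelia were near these shares.

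The genes whose signals ran most like each member over the 18 samples are given as a description, with Pearson's r among 9235 genes of mean log2 signal above 7 (9236 for Cdkn2b). The 18 points share layer, stage and animals. For Cdkn2a they were Gin1 (0.96), Mrpl45 (0.96), Snupn (0.96), Akr1b8 (0.94) and Wdr36 (0.93). Cdkn2b ran most like Cdc123 (0.96), Drg1 (0.96) and Akt1s1 (0.96), and Cdkn2c like Zdhhc9 (0.99), Clec16a (0.99) and Ipo9 (0.99). Cdkn1b ran most like Rabac1 (0.95), Nr1d1 (0.95) and Synm (0.94), and Cdkn1c like Slc29a1 (0.99), Rab12 (0.99) and Zfta (0.99). For Ccnd1 the genes were Cdt1 (0.93), Tyw1 (0.92) and Mcm3 (0.91), where Cdt1 and Mcm3 are in the E2F target list, and for Rb1 Ctdspl (0.91), Pdcd4 (0.89) and Ints6l (0.87).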

How the data were processed

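Oral epithelia and submucosal fibroblasts at 3 stages were read on 18 arrays. The deposited intensity values are linear probe set signals that the authors had summarised and normalised. Processing tools given by the submitters' processing notes are RMA and Affymetrix Expression Console, with versions not given in the sources used here. Signals were taken to log2. The fits took 31042 of 31099 probe sets, the other 57 being controls. Of those fitted, 1 gene is named for 20826, more than 1 for 436 and none for 9780. The 9 arrays of a layer went into 1 limma fit (limma 3.58.1, R 4.3.3), and the normal layers were compared in a fit of all 18 arrays. Calls are at an adjusted p (Benjamini-Hochberg over all probe sets) under 0.05. A gene count takes 1 probe set per gene, that of highest mean.

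The members and all gene lists were chosen with earlier results of these data known, so the lists' epithelial counts are no independent support. Every member was named, and of each list up to 3 called genes of largest change per comparison, other names being chosen after their values were seen. Columns of the authors' own comparisons were not used. Arrays of dysplasia and SCC fibroblasts with the same number deviated together (correlations 0.321 to 0.592), so the blocked value is given where it changes a call between these groups. In other pairs of groups not every same-number correlation was above 0.1. The alternatives were 2 other normalisations (quantile and spike-in alignment), an offset of 32, a signal filter at 7, other arrays in the fit, a replicate block, trended and robust variances, array weights, the methods' t-test, the median of probe sets and leaving out each array. Leaving out the third fibroblast samples was chosen after seeing the data. The scripts were tested on simulated data.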

Additional observations from a re-analysis of the deposited data

Results flagged for a closer look

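The differences between the layers in how far a gene moved from normal are given as the epithelial change minus the fibroblast change on the log2 scale, from the fit of all 18 arrays, with limma's adjusted p for the genes that are no members. They stood out because the layers moved by different amounts. The genes were thus picked for this difference, from lists chosen with earlier results known, and its adjusted p is no independent support. Other genes of the lists passed as well, such as Ccnd3 for the change to SCC (1.51, adjusted p = 0.0125) and Pcna for that to dysplasia (0.78, adjusted p = 0.0231).

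Cdkn1c moved in opposite directions, higher by 0.85 in SCC epithelia and lower by 1.53 in SCC fibroblasts, a difference of 2.37 (SE 0.58), which was not tested because the epithelial change helped to choose the gene. SCC epithelial sample 1, at 7.24, lay within the normal range of 7.01 to 7.40, and the fibroblast markers in the SCC epithelia stood at 7.50 to 11.6 against 5.90 to 8.15 in normal epithelia.

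For the change to dysplasia the difference was 1.65 for Mcm6 (adjusted p = 0.0279), 1.52 for E2f8 (0.0477), 1.31 for Cdc25a (0.00630) and 1.30 for E2f7 (0.0247), all higher in epithelia. Ets1 differed by 2.14 for the change to dysplasia (0.0364) and by 3.65 for the change to SCC (0.000519), and Cxcl1 by 1.85 (0.0187) and 3.50 (7.56e-05).

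For the change to SCC the difference was 3.67 for Mmp3 (adjusted p = 0.0122), 2.22 for Il6 (0.0319), 1.05 for Mdm4 (0.0218), 0.87 for Myc (0.0284) and 0.73 for Smad3 (0.0185). It was -0.88 for Hmga1 (0.0168), -0.83 for Cops5 (0.0124), -0.63 for Cdkn1a (0.0360) and -0.48 for Rbx1 (0.0365), whose change was the lower one in epithelia.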

How the results depend on the processing

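Of 1008 values of the members under alternatives, 898 kept their direction and call or moved by less than the replicate spread, 50 gained a call, 16 lost it, 15 epithelial values moved by more than the spread and 29 changed sign, of which only those of Cdkn1b between the normal layers were called. Whether Cdkn2b and Cdkn1c were called in SCC fibroblasts, and Cdkn2a in dysplasia fibroblasts, changed with single arrays. A dim probe set such as that of Cdkn2b lies near the array median, where an offset of 32 shrinks its differences.

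The number of members called between dysplasia and normal fibroblasts, 0 in the reported fit, was 1 with the spike-in alignment, 2 with the replicate block, 4 with array weights (whose iteration stopped short of its tolerance), 1 with all arrays in 1 fit and 4 without the third samples, and 0 to 1 with single arrays left out. Between SCC and normal fibroblasts, 3 as reported, it was 7 with array weights, 0 with the methods' t-test and 7 without the third samples, and 1 to 3 with single arrays left out. With the replicate block Cdkn2c was called there beside the reported 3. Between SCC and dysplasia fibroblasts, 0 as reported, it was 2 with the spike-in alignment, 1 with the replicate block, 4 with array weights, 1 with all arrays in 1 fit and 2 without the third samples, and 0 to 1 with single arrays left out. Between the normal layers, 3 as reported, it was 5 with the spike-in alignment. Other settings gave more than 3 as well, since Cdkn1b was called there in 10 of 28 settings and Rb1 in 2. The replicate block, whose numbers pair only the dysplasia and SCC fibroblasts, moved the adjusted p of Cdkn2a to 0.00959 and of Cdkn1c to 0.0296 in dysplasia minus normal fibroblasts, of Cdkn2c to 0.0465 in SCC minus normal fibroblasts and of Cdkn1c to 0.0391 in SCC minus dysplasia fibroblasts, and it changed no other call of a member.

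The number of pathway genes called between SCC and dysplasia epithelia, 0 as reported, was 2 with the spike-in alignment, 2 with all arrays in 1 fit and 1 with only probe sets above 7, and 0 to 5 with single arrays left out. Between dysplasia and normal fibroblasts, 0 as reported, it was 2 with the replicate block, 31 with array weights (35.6% of all genes), 6 with all arrays in 1 fit and 34 without the third samples, and 0 to 4 with single arrays left out. Between SCC and normal fibroblasts, 15 as reported, it was 32 with the spike-in alignment, 58 with array weights (60.8% of all genes), 2 with the methods' t-test, 26 with all arrays in 1 fit and 49 without the third samples, and 1 to 24 with single arrays left out. Between SCC and dysplasia fibroblasts, 0 as reported, it was 43 with the spike-in alignment (which called 32.7% of all genes higher and 0.0422% lower), 2 with an offset of 32, 1 with trended and robust variances, 35 with array weights (29.8% of all genes), 6 with all arrays in 1 fit, 1 with only probe sets above 7, 1 with the median of probe sets and 28 without the third samples, and 0 to 3 with single arrays left out. Over all probe sets the spike-in alignment set the median difference at 0.56 for SCC minus normal fibroblasts and 0.71 for SCC minus dysplasia fibroblasts. With the replicate block the number of all probe sets called went from 53 to 1449 for dysplasia minus normal fibroblasts, from 4733 to 7405 for SCC minus normal fibroblasts and from 8 to 3 for SCC minus dysplasia epithelia. The cause of these changes was not tested.

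The signs changed as follows. Aligning on the spike-in controls gave Cdkn2c 0.23 and Cdkn1b 0.49 and Rb1 0.28 for SCC minus normal fibroblasts, Cdkn2c 0.64, Cdkn1b 0.53 and Rb1 0.40 for SCC minus dysplasia fibroblasts, Cdkn1b -0.046 for dysplasia minus normal fibroblasts, and Cdkn1b 0.54 (adjusted p = 0.0305) and Ccnd1 0.41 for normal epithelia minus fibroblasts. The median of probe sets gave Cdkn2c 0.0063, 0.013 and 0.0064 for dysplasia minus normal, SCC minus normal and SCC minus dysplasia fibroblasts, Cdkn1b -0.12, 0.10 and 0.22 for the same, and Cdkn1b 0.60 (adjusted p = 0.00213) between the normal layers. Quantile normalization gave Cdkn2a -0.042 between the normal layers and Rb1 0.035 for dysplasia minus normal fibroblasts. Array weights gave Cdkn2a -0.10 between the normal layers, Cdkn2c 0.034 for SCC minus dysplasia fibroblasts and Cdkn1b -0.064 for dysplasia minus normal fibroblasts, which was -0.10 without the third samples. With single arrays left out the range was -0.11 to 0.18 for Cdkn2a between the normal layers, -0.070 to 0.14 for Cdkn1b and -0.090 to 0.032 for Rb1 in dysplasia minus normal fibroblasts, and -0.044 to 0.34 for Ccnd1 in SCC minus dysplasia fibroblasts.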
